A study of Mus musculus with 6 samples.

Results

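The genes of glycolysis, of glycogen turnover and of lactate handling were examined in bone marrow-derived macrophages (BMDMs), which the study's methods call monocytes, after co-culture with ID8 cells, a mouse ovarian cancer line. The 37 genes were taken by name, and they fill 38 of the 54532 rows of the deposited expression table, since Aldoa names 2 rows. In 3 libraries (called cisplatin) the cancer cells had first met 40 µM of cisplatin, which crosslinks DNA, and in the other 3 only phosphate-buffered saline (PBS). The marrow came from C57BL/6 mice aged 6 to 8 weeks, and the cells were grown in medium with serum. How many animals were used, their sex and how BMDMs were parted from ID8 cells before RNA extraction are not given in the sources used here. Values are FPKM, that is reads scaled to gene length and to library size. Rankings between genes, and shares within a family, therefore rest on the length listed for each gene, from 2244 bases for Pgk1 to 13401 for Pfkp, for instance. The reads behind the FPKM numbered 15776238 to 17924686 per library. The study's methods speak of biological replicates without saying whether the 3 libraries of a group came from separate animals or cultures, so SDs and SEs are given as the spread between these libraries.

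Glycolysis splits glucose into pyruvate. Glucose enters through GLUT transporters, is trapped by hexokinase, committed by phosphofructokinase and cleaved by aldolase, and the later enzymes of the chain harvest ATP. Pyruvate is then either reduced to lactate by lactate dehydrogenase and exported by monocarboxylate transporters, or burnt in mitochondria, a route that the pyruvate dehydrogenase kinases close. Glycogen is built from the same glucose phosphates through phosphoglucomutase and glycogen synthase. Activated macrophages are known to lean on glycolysis, and in many cells the transcription factor HIF-1 raises most of these genes when oxygen is short.

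Most of these genes were lower in the cisplatin libraries. Of the 38 rows, 36 passed the filter on low values (3 or more libraries at or above 1 FPKM). A gene is called below where limma, fitted across all 13441 genes that passed, gave an adjusted p (Benjamini-Hochberg) below 0.05 with groups at least 1 log2 unit apart. By that rule 23 of the 36 were lower with cisplatin, where 11.3% of all tested genes were, and 2 were higher, where 4.67% of all tested genes were. At the adjusted p alone 31 were lower and 4 higher, with 35.1% and 32.9% of all tested genes as the background. All 3 PBS libraries lay above all 3 cisplatin libraries in 31 members and below them in 4, against 37.2% and 35.2% of all tested genes, and in 1 tested member the groups overlapped. The median log2 fold change was -1.36 over the tested members and -0.0011 over all tested genes. Scaling the libraries by 4 Y-linked genes in place of the deposited scale gave 31 members lower and 0 higher, beside 5181 and 85 of all tested genes, whose median it moved to -0.83. The members had been listed with values of this same contrast known, so these counts and the fold changes that follow describe them and test nothing. Added together, the 38 rows gave 6635, 6364 and 6677 FPKM in PBS replicates 1 to 3 and 2527, 2644 and 2601 FPKM in cisplatin replicates 1 to 3, or 2.19% ± 0.040 and 0.861% ± 0.019 of the FPKM of all genes (SD, n = 3 each). The drop of this sum was thus far larger than the spread within a group.

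**Figure D1:**
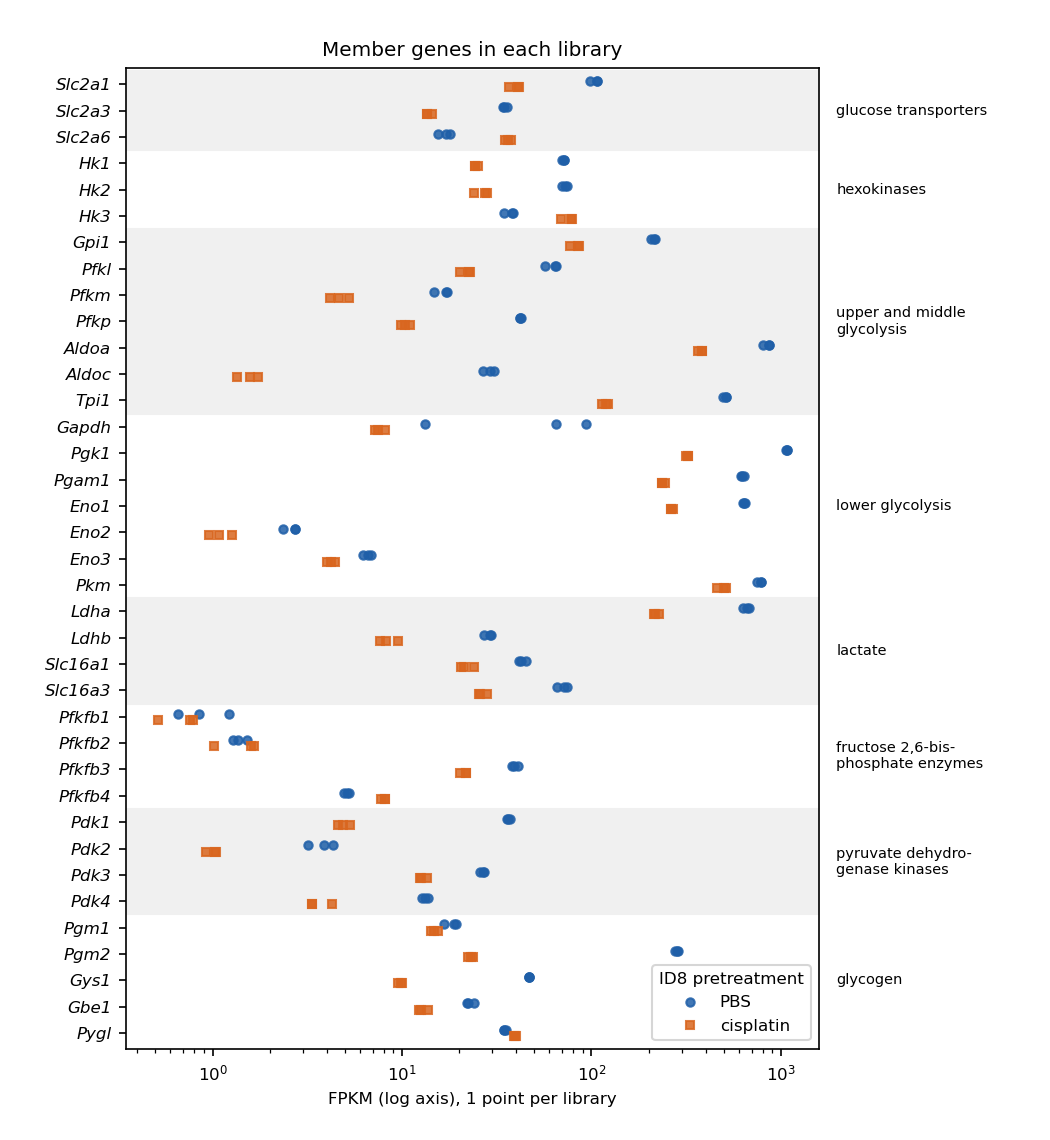
Level of each of the 37 named genes in each library, as FPKM on a log axis, grouped by role (circles, PBS; squares, cisplatin; the weak second Aldoa row is left out). The squares lie to the left of the circles for most genes, to the right for Slc2a6, Hk3, Pfkfb4 and Pygl, and the Gapdh circles spread from 13.2 to 93.1.

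The cells in the libraries were checked with marker genes of BMDMs, of ID8 cells and of other cells of marrow. Most macrophage genes were present in both groups, with Adgre1 at 103 ± 1.06 FPKM with PBS and 190 ± 3.52 with cisplatin (SD, n = 3 each), and the sum of 10 such genes was 1716 to 1727 FPKM with PBS and 4326 to 4489 with cisplatin. Lyz2, the lysozyme gene, made up most of that sum, and the other 9 genes together gave 554 to 565 FPKM with PBS and 924 to 938 with cisplatin. Of the 10 genes 3 were called higher, namely Itgam, Lyz2 and Mertk, against 4.67% of all tested genes. Mertk was at 0.134 to 0.430 FPKM with PBS and passed the filter through the cisplatin libraries alone. Genes of epithelium, mesothelium and ID8 cells were present too, and went the other way. Their sum over 14 genes was 1311 to 1414 FPKM with PBS and 247 to 268 with cisplatin. Of the 10 tested genes of that list 8 were called lower, against 11.3% of all tested genes. Among them Krt19 went from 588 ± 28.8 to 51.1 ± 3.80 FPKM (SD, n = 3 each). Msln, with a log2 fold change of -0.70, and Cdh1, at 0.60, were not called, and Krt7, Lrrn4, Epcam and Igfbp5 stayed under 1 FPKM in all 6 libraries. The 4 Y-linked genes summed to 19.5 to 22.7 FPKM with PBS and 41.6 to 42.8 with cisplatin, while Xist, the RNA that silences an X chromosome in female cells, fell from 42.7 ± 5.35 to 7.79 ± 0.19 FPKM (SD, n = 3 each). Lymphocyte genes, 7 in number, summed to 112 to 121 FPKM with PBS and 266 to 272 with cisplatin, and 5 neutrophil genes to 4497 to 4636 and 7764 to 8019. S100a8 and S100a9 made up most of the neutrophil sum. Ly6g was at 2.81 ± 0.46 FPKM with PBS and 3.15 ± 0.36 with cisplatin (SD, n = 3 each), a log2 fold change of 0.13. Of the 5 neutrophil genes 1, Retnlg, was called higher, against 4.67% of all tested genes. The 5 erythroid genes gave 64.2 to 68.2 and 71.4 to 75.4 FPKM, and the 4 fibroblast genes 3.54 to 4.45 and 2.02 to 2.24. The markers of several cell types thus moved with the groups beside the glycolytic genes, and their part in the results was not tested. In such bulk RNA fewer cells of a type and less RNA of a gene per cell cannot be told apart.

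**Figure D2:**
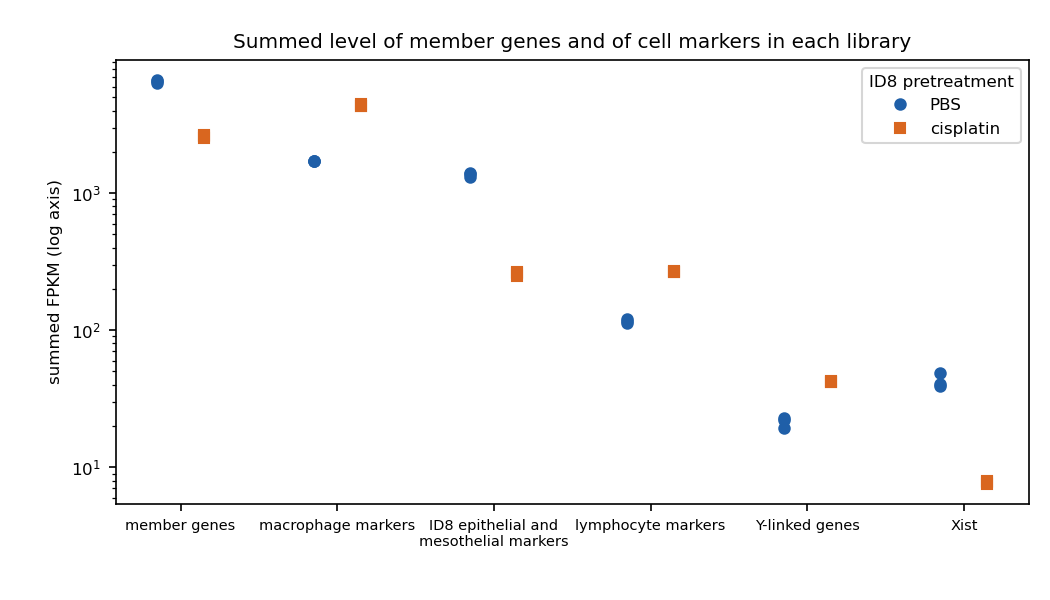
Summed FPKM (log axis) of the 38 member rows and of lists of cell markers in each library (circles, PBS; squares, cisplatin). The member genes and the ID8, epithelial and mesothelial markers lay lower in the 3 cisplatin libraries, and the macrophage, lymphocyte and Y-linked genes lay higher.

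Because HIF-1 binds the letters ACGTG, the stretch of 250 bases before each transcription start was read for that word on either strand. RefSeq windows on GRCm38.p6 were found for 36 of the 37 genes, 55 windows in all, and not for Slc2a3. The word was present for 18 of the 36 genes, or 50%, and in 40% of their windows, against 18.5% of all genes with a window, 25.1% of the tested genes with one and 16.6% of all windows. It was present for 10 of the 22 members called lower that had a window and for 8 of the other 14, or 45.5% and 57.1%. Several of the members with the lowest log2 fold changes did not hold it, namely Aldoc, Pdk1, Gapdh, Gys1, Tpi1 and Pfkp. Pgm2, the lowest of all at -3.55, and Pgk1, at -1.74, held 2 matches each. Matches outside the 250 bases were not sought. The windows below were chosen to show members called lower with the word (Pgm2, which RefSeq calls Pgm1, and Pgk1 and Ldha) and without it (Aldoc, Pdk1 and Gys1), and the 2 members called higher (Hk3, Slc2a6). They are written 5′ to 3′ on the strand of the gene, with ACGTG and its reverse complement CACGT in capitals. At Ldha the 2 words overlap in a pair of CACGTG palindromes, which are also the E-box read by MYC and USF proteins. RefSeq gives 2 windows for Ldha, 4329 and 5607 bases inside the table's gene start, and the one shown is the nearer, while the other held no match. Aldoc and Pdk1 also have 2 windows each, none with the word, and the nearer is shown. A match is a run of letters and not a measured binding site. The coordinates, in the order below, are chr4:99929201-99929450 (plus), chrX:106186850-106187099 (plus), chr7:46845554-46845803 (plus), chr11:78322823-78323072 (plus), chr2:71872974-71873223 (plus), chr7:45434589-45434838 (plus), chr13:55021386-55021635 (minus) and chr2:27027999-27028248 (minus).
Pgm2: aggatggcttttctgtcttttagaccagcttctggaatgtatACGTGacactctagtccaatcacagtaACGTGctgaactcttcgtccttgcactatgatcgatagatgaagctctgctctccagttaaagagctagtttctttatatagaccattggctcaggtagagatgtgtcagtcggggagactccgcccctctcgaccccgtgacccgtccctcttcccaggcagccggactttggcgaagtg
Pgk1: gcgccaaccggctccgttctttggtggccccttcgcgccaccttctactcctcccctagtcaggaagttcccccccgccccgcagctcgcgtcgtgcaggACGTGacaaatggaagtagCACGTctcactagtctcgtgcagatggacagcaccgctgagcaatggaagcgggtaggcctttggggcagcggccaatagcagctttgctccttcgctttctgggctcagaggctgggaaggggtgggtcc
Ldha: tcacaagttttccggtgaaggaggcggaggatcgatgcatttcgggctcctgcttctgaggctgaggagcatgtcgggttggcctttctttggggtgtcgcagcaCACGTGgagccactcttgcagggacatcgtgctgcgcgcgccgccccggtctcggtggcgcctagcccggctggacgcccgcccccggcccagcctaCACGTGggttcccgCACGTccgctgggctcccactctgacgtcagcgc
Aldoc: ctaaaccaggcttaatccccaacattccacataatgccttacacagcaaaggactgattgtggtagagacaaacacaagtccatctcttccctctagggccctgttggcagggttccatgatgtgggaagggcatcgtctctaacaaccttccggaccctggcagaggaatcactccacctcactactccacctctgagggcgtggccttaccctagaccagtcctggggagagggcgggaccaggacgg
Pdk1: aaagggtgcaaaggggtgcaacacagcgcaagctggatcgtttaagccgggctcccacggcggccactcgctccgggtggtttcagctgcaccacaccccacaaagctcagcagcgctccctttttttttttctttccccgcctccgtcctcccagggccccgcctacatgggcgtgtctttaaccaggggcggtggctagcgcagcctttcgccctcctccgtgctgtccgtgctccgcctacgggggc
Gys1: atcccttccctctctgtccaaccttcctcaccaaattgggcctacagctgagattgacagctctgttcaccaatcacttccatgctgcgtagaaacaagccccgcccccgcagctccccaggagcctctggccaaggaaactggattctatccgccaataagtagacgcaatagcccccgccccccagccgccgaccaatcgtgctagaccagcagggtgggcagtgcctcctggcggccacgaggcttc
Hk3: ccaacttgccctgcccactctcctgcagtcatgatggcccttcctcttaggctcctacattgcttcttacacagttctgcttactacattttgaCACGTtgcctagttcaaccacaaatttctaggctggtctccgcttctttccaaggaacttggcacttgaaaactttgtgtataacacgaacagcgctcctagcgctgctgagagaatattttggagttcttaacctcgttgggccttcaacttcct
Slc2a6: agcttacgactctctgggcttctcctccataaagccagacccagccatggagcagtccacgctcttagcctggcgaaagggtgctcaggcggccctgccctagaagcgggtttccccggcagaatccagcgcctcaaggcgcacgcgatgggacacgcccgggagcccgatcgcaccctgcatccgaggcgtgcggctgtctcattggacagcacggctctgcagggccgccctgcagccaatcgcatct

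Of the glucose transporters 2 were called lower and 1 higher, against 11.3% and 4.67% of all tested genes. Slc2a1, which encodes GLUT1, the transporter of most growing cells (ENSMUSG00000028645, chromosome 4, 119108711 to 119137983), measured 107, 97.8 and 107 FPKM in PBS replicates 1 to 3 and 36.5, 41.7 and 41.2 in cisplatin replicates 1 to 3, a log2 fold change of -1.36 (SE 0.063) and 2.61-fold in linear terms. Slc2a3, which encodes the high-affinity GLUT3, went from 35.8, 34.7 and 34.1 to 13.5, 14.4 and 13.6 FPKM (log2 fold change -1.27). The PBS and cisplatin values of both did not overlap. Slc2a6 (ENSMUSG00000036067, chromosome 2, 27021363 to 27027998) rose instead, from 17.9, 17.02 and 15.5 FPKM with PBS to 34.9, 37.7 and 36.2 with cisplatin (log2 fold change 1.07, SE 0.060). It encodes GLUT6, a transporter found largely on inner membranes. As a share of the FPKM of the 3 transporters, Slc2a6 made up 9.90 to 11.4% in the PBS libraries and 39.8 to 41.1% in the cisplatin libraries, and Slc2a1 65.4 to 68.3% and 42.98 to 45.3%.

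The hexokinases, which phosphorylate glucose on entry, changed order. Hk1, the housekeeping form, was at 71.7, 70.1 and 71.5 FPKM with PBS and 24.3, 25.2 and 24.4 with cisplatin (log2 fold change -1.49, SE 0.033). Hk2, the inducible form that like Hk1 can dock on mitochondria, was at 74.4, 69.5 and 72.6 FPKM with PBS and 23.8, 27.4 and 28.2 with cisplatin (log2 fold change -1.42). Hk3, the form of myeloid cells (ENSMUSG00000025877, chromosome 13, 55005985 to 55021385), was at 37.9, 34.4 and 38.7 FPKM with PBS and 69.4, 77.7 and 78.9 with cisplatin, a rise of 2.04-fold (log2 fold change 1.01, SE 0.066). With PBS the FPKM of Hk1 and Hk2 were alike, with overlapping ranges, and Hk3 lay below them. By reads Hk1 lay above Hk2 there, at 10834, 9313 and 9463 against 7857, 6461 and 6724. With cisplatin Hk3 was the highest of the 3 in each library and held 59.03 to 60.00% of the summed hexokinase FPKM, against 19.8 to 21.1% with PBS. The family as a whole went from 180 ± 5.48 to 126 ± 7.73 FPKM (SD, n = 3 each). The Hk3 call sat at the fold threshold, and it was lost without PBS replicate 2 (log2 fold change 0.96), cisplatin replicate 2 (0.98) or cisplatin replicate 3 (0.97). With the libraries scaled by the Y-linked genes Hk3 stood at 0.027 and Slc2a6 at 0.11, and neither was called.

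**Figure D3:**
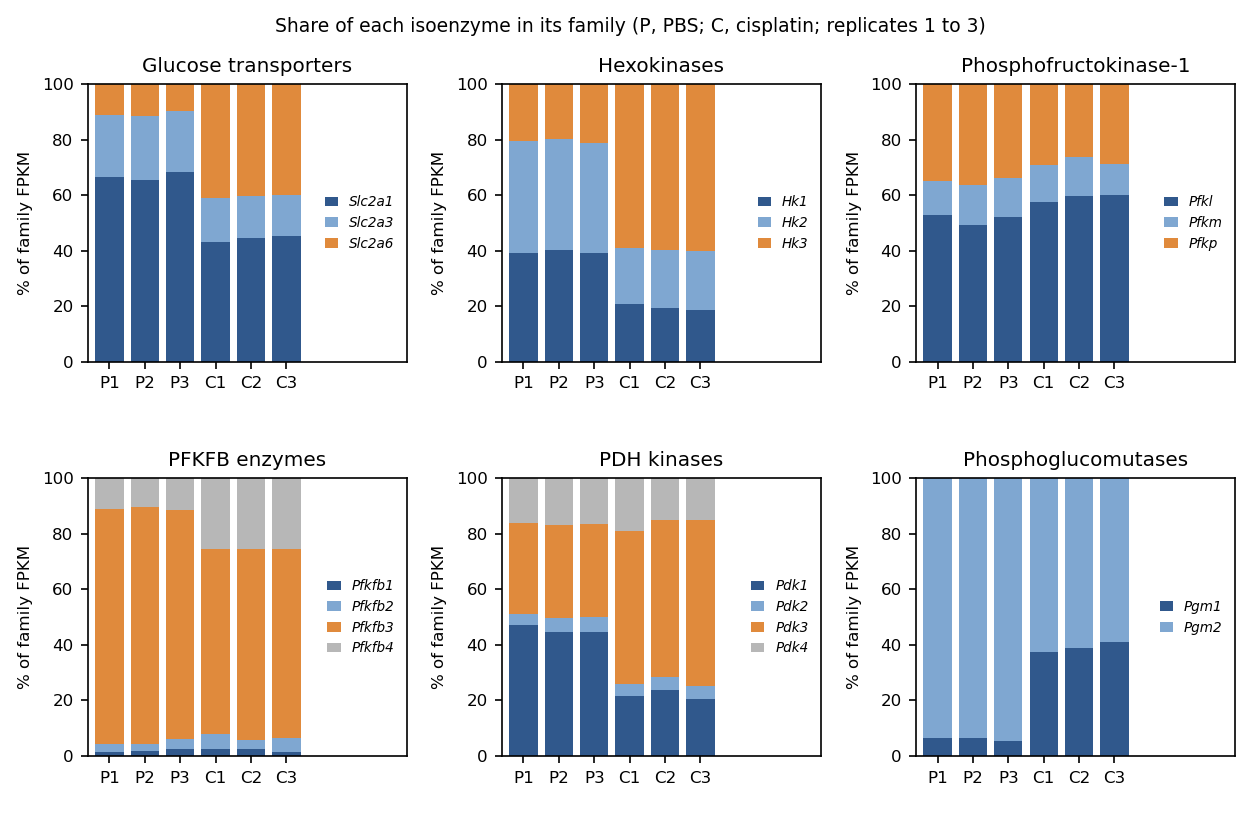
Stacked bars of the share of each isoenzyme in the summed FPKM of its family, in percent, for PBS replicates 1 to 3 (P1 to P3) and cisplatin replicates 1 to 3 (C1 to C3). Hk3, Slc2a6, Pfkfb4, Pdk3 and Pgm1 took larger shares in the cisplatin libraries, and the mix of Pfkl, Pfkm and Pfkp moved less.

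In the steps from glucose 6-phosphate to the trioses all 7 tested genes were called lower, against 11.3% of all tested genes. Gpi1, the isomerase that makes fructose 6-phosphate, was at 216, 206 and 214 FPKM with PBS and 77.4, 85.5 and 84.5 with cisplatin (log2 fold change -1.35). The subunits of phosphofructokinase, the committed step, fell together. Pfkl, the liver type, went from 64.1, 57.1 and 65.1 to 20.3, 22.5 and 22.9 FPKM (log2 fold change -1.46), Pfkp, the platelet type, from 42.4, 42.2 and 42.1 to 10.4, 9.88 and 10.98 (-1.92) and Pfkm, the muscle type, from 14.8, 17.1 and 17.3 to 4.65, 5.23 and 4.15 (-1.62). By FPKM Pfkl held the largest share of the 3 in every library, 51.4% ± 2.01 with PBS and 59.2% ± 1.45 with cisplatin (SD, n = 3 each). This order rests on the listed lengths, 6675 bases for Pfkl and 13401 for Pfkp. By reads Pfkp lay above Pfkl with PBS, at 10060, 8799 and 8749 against 7567, 5941 and 6738. With cisplatin Pfkp had 2364, 2174 and 2430 reads against 2307, 2467 and 2519 for Pfkl.

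The aldolases, which cut fructose 1,6-bisphosphate, differed in the size of their fall. Aldoa (ENSMUSG00000030695, chromosome 7, 126795234 to 126800751), the main form, measured 869, 805 and 863 FPKM with PBS and 363, 383 and 382 with cisplatin, 2.25-fold lower (log2 fold change -1.17, SE 0.043). Aldoc (ENSMUSG00000017390, chromosome 11, 78322968 to 78327781), the brain form, measured 29.1, 26.7 and 30.5 FPKM with PBS and 1.35, 1.59 and 1.74 with cisplatin, 18.4-fold lower (log2 fold change -3.54, SE 0.077), the largest linear ratio among the tested members. It nonetheless gave only 3.21 to 3.41% of aldolase FPKM with PBS. The second Aldoa row, a gene of 799 bases just upstream, rested on 17, 11 and 10 reads with PBS and 6, 0 and 1 with cisplatin and was not tested. Tpi1, triose phosphate isomerase, went from 512, 495 and 515 to 113, 122 and 119 FPKM (log2 fold change -2.09).

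The later steps of the pathway were among the most abundant RNA of the list. Pgk1, phosphoglycerate kinase, is the first ATP-yielding step (ENSMUSG00000062070, chromosome X, 106187100 to 106203699). It was the highest member by FPKM in all 3 PBS libraries, at 1079, 1064 and 1083, and stood at 324, 322 and 316 with cisplatin (log2 fold change -1.74, SE 0.029). By reads Pkm lay above it with PBS, at 69173, 57912 and 60833 against 42871, 37185 and 37685 for Pgk1. Pgam1, the mutase that follows, went from 639, 614 and 622 to 246, 236 and 236 FPKM (log2 fold change -1.38). Eno1, the main enolase, went from 633, 638 and 644 to 263, 269 and 264 FPKM (log2 fold change -1.26), and a near-identical copy, Eno1b, can share its reads. In these 3 genes the libraries within a group lay within a few percent of each other and far from the other group.

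The last step and the minor enolases were not called. Pkm, which encodes the pyruvate kinase that ends glycolysis (ENSMUSG00000032294, chromosome 9, 59656368 to 59679375), measured 782, 743 and 784 FPKM with PBS and 462, 512 and 499.8 with cisplatin. Its log2 fold change of -0.65 (SE 0.048) did not reach the fold threshold, and in the cisplatin libraries Pkm, not Pgk1, was the highest member by FPKM. Eno2, the neuronal enolase, was low at 2.74, 2.35 and 2.73 FPKM with PBS and 0.962, 1.27 and 1.08 with cisplatin, and Eno3, the muscle form, was at 6.63, 6.20 and 6.86 with PBS and 4.23, 4.41 and 4.04 with cisplatin. Their log2 fold changes were -0.78 and -0.53. The pseudocount of 1 shrinks the change of a gene as low as Eno2, which was 2.36-fold lower in linear terms, next to 2.40-fold for Eno1, and was called with a pseudocount of 0.1 (-1.17), with TPM rescaling (-1.06) and with voom (-1.16).

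Gapdh, the dehydrogenase between the trioses and Pgk1 and a gene often used as a reference in PCR, did not behave like its neighbours between replicates (ENSMUSG00000057666, chromosome 6, 125161715 to 125166467). It was listed at 65.1, 13.2 and 93.1 FPKM in PBS replicates 1 to 3 and at 7.24, 7.50 and 8.10 in cisplatin replicates 1 to 3. The highest PBS value was thus 7.04-fold the lowest, while those of Pgk1 lay within 1.79%, and even the highest lay well under Tpi1 and Pgk1. Its log2 fold change of -2.37 had an SE of 0.65, the largest of the list, and leaving out PBS replicate 1, 2 or 3 gave -2.09, -3.20 or -1.83, the first of these not called. Gapdh has many processed copies in the mouse genome, and how reads that match several places were counted is not given in the sources used here.

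**Figure D4:**
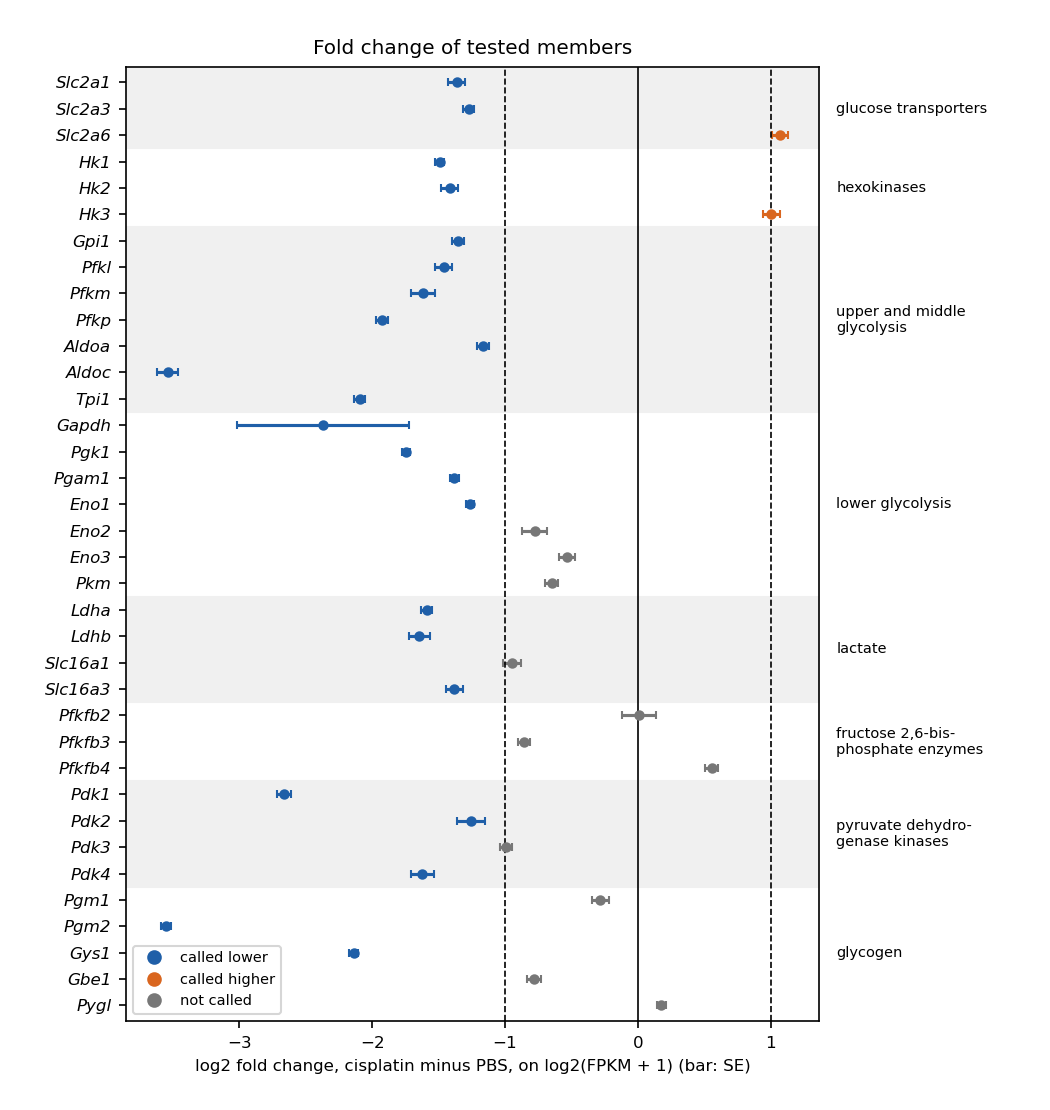
Log2 fold change of each tested member, cisplatin minus PBS, on the log2(FPKM + 1) scale with its SE as the bar (blue, called lower; orange, called higher; grey, not called; dashed lines, the fold threshold of 1). All 7 tested genes of upper and middle glycolysis lie left of -1, and the longest bar is that of Gapdh.

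At the end of the pathway, 3 of the 4 lactate genes were called lower, against 11.3% of all tested genes. Ldha, the subunit that favours making lactate (ENSMUSG00000063229, chromosome 7, 46841475 to 46855627), went from 665, 634 and 681 FPKM to 215, 226 and 215 (log2 fold change -1.59, SE 0.041). Ldhb, the subunit that favours its use, went from 29.2, 27.03 and 29.4 to 9.51, 7.68 and 8.21 FPKM (log2 fold change -1.65). Ldha gave 95.9% ± 0.061 of lactate dehydrogenase FPKM with PBS and 96.3% ± 0.49 with cisplatin (SD, n = 3 each), so the balance of the subunits differed by less than the spread of the cisplatin libraries.

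Of the lactate carriers, Slc16a3, which encodes MCT4, the exporter of glycolytic cells, was called lower at 74.2, 65.5 and 71.9 FPKM with PBS and 25.4, 28.1 and 25.9 with cisplatin (log2 fold change -1.38). Slc16a1, which encodes MCT1, went from 42.5, 44.98 and 41.7 to 24.1, 21.1 and 20.4 FPKM, and its log2 fold change of -0.95 lay just short of the threshold. Without cisplatin replicate 1 it was -1.02 and called.

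The PFKFB enzymes set the level of fructose 2,6-bisphosphate, the main activator of phosphofructokinase, and they did not move together. Pfkfb3, the form with the strongest kinase side, was at 39.00, 40.9 and 38.05 FPKM with PBS and 20.3, 21.8 and 21.7 with cisplatin (log2 fold change -0.86). Pfkfb4 was at 5.15, 4.95 and 5.23 FPKM with PBS and 7.73, 8.09 and 8.17 with cisplatin, with no overlap of the groups and cisplatin on the high side (log2 fold change 0.56). Neither reached the fold threshold, yet the share of Pfkfb4 in the family was 10.3 to 11.4% with PBS and 25.4 to 25.6% with cisplatin. Pfkfb2, at 1.37, 1.28 and 1.52 FPKM with PBS and 1.65, 1.02 and 1.60 with cisplatin, was the tested member whose groups overlapped, with a log2 fold change of 0.0097 (SE 0.13). Pfkfb1, the liver form, was under the filter at 0.661, 0.847 and 1.22 FPKM with PBS and 0.790, 0.758 and 0.513 with cisplatin, and its groups overlapped too. Scaled by the Y-linked genes, Pfkfb4 and Pfkfb2 turned to -0.30 and -0.57, both above the -0.83 of all tested genes.

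The pyruvate dehydrogenase kinases, which hold pyruvate back from mitochondria, were all lower in every cisplatin library than in any PBS library, as were 37.2% of all tested genes. Of the 4, 3 were called lower, against 11.3% of all tested genes. Pdk1 (ENSMUSG00000006494, chromosome 2, 71873224 to 71903858) fell the furthest, from 37.1, 36.2 and 36.04 FPKM to 4.86, 5.31 and 4.58, or 7.42-fold (log2 fold change -2.66, SE 0.054). Pdk4, known for its rise in fasting, went from 12.8, 13.7 and 13.3 to 4.25, 3.35 and 3.35 FPKM (log2 fold change -1.62), and the weakly present Pdk2 from 3.18, 3.88 and 4.32 to 0.929, 1.04 and 1.03 (-1.25). Pdk3 went from 25.9, 27.1 and 26.8 to 12.4, 12.7 and 13.5 FPKM, and at -0.99 it missed the call by the smallest margin of the list. Without cisplatin replicate 3 or PBS replicate 1 it was called, at -1.03 and -1.01. It was also called with a pseudocount of 0.1 (-1.04), with TPM rescaling (-1.04) and with scaling by the Y-linked genes (-1.94). By FPKM Pdk1 was the highest of the 4 in every PBS library, at 45.5% ± 1.30 of their sum. With cisplatin Pdk3 was, at 57.3% ± 2.45 (SD, n = 3 each). That change of order rests on the listed lengths, 7779 bases for Pdk1 and 2561 for Pdk3. By reads Pdk1 stayed above Pdk3 with cisplatin, at 643, 678 and 589 against 541, 533 and 570. The family summed to 80.1 ± 1.04 FPKM with PBS and 22.4 ± 0.049 with cisplatin (SD, n = 3 each).

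The glycogen genes split widely. The table's Pgm2 (ENSMUSG00000025791, chromosome 4, 99929414 to 99987294) is the gene that GENCODE M21 and RefSeq call Pgm1, the phosphoglucomutase that links glucose 6-phosphate with glycogen, and the table's Pgm1 (ENSMUSG00000029171, chromosome 5, 64092950 to 64128351) is their Pgm2. The table's names are kept here. Pgm2 measured 276, 286 and 283 FPKM with PBS and 23.7, 23.3 and 22.3 with cisplatin, 12.2-fold lower, with the lowest log2 fold change of the list at -3.55 (SE 0.036). Pgm1 measured 18.7, 19.3 and 16.7 FPKM with PBS and 14.1, 14.7 and 15.6 with cisplatin, with a log2 fold change of -0.28. Their sum went from 299.5 ± 5.31 to 37.9 ± 0.10 FPKM (SD, n = 3 each), and the share of Pgm1 in it was 5.58 to 6.36% with PBS and 37.4 to 41.2% with cisplatin.

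Gys1, the glycogen synthase of most tissues (ENSMUSG00000003865, chromosome 7, 45434844 to 45456619), went from 46.6, 46.6 and 46.8 FPKM to 9.53, 10.05 and 9.89 (log2 fold change -2.14, SE 0.036). In the table it overlaps Ruvbl2, and 22 of the 38 member rows overlap another gene, among them Pgm2 (Itgb3bp), Tpi1 (Spsb2), Pfkp (Pitrm1), Pfkm (Senp1), Hk3 (Unc5a) and Gapdh (Iffo1). Whether reads were counted by strand, and to which gene shared reads went, is not given in the sources used here. Gbe1, the branching enzyme, went from 22.2, 23.9 and 22.2 to 13.7, 12.5 and 12.3 FPKM and was not called (log2 fold change -0.78). Pygl, the phosphorylase that breaks glycogen down in liver and myeloid cells, was at 35.5, 34.4 and 34.6 FPKM with PBS and 38.9, 39.6 and 40.04 with cisplatin, a small difference that nevertheless left the groups apart (log2 fold change 0.18, SE 0.033). Scaled by the Y-linked genes it stood at -0.79, close to all tested genes.

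The enzymes and carriers around these steps, 74 further genes listed by function, were compared in the same fit. Of the 53 tested, 12 were called lower and 0 higher, with 11.3% and 4.67% of all tested genes as the background, and their median log2 fold change was -0.13. At the adjusted p alone 22 were lower and 18 higher, against 35.1% and 32.9% of all tested genes. Among called genes with a mean of at least 5 FPKM in the higher group, the largest falls were those of Bsg, which encodes basigin, the partner that carries MCT1 and MCT4 to the cell surface, at -2.71 on the log2 scale (803 ± 36.7 FPKM with PBS and 122 ± 2.02 with cisplatin, SD, n = 3 each), and of Stbd1, which tethers glycogen to membranes, at -2.64 (10.2 ± 0.49 and 0.805 ± 0.18 FPKM, SD, n = 3 each). Slc37a4, the carrier of glucose 6-phosphate into the endoplasmic reticulum, followed at -1.66 and Pygb, the brain-type phosphorylase, at -1.49. The remaining 8 called genes, named after their values were seen, were Txnip, Ugp2, Eno1b, Mpc1, Ppp1r3b, Ppp1r3c, Ldhd and Epm2a. Of these Ppp1r3c, a subunit that targets a phosphatase to glycogen, lay under that level with PBS at 4.20, 3.92 and 4.17 FPKM, and its 202, 166 and 176 reads there faced 0, 1 and 0 reads with cisplatin (log2 fold change -2.34). Of the 12 called genes 4 (Stbd1, Ppp1r3c, Ldhd and Epm2a) were under 1 FPKM in every cisplatin library and so passed the filter through the PBS libraries alone.

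The pentose phosphate branch, which leaves glycolysis at glucose 6-phosphate to make NADPH and ribose, differed from the members in its median. Of its 8 tested genes 0 were called either way at the fold threshold, against 11.3% lower and 4.67% higher of all tested genes, while at the adjusted p alone 6 were higher and 1 lower, against 32.9% and 35.1% of all tested genes, and the median log2 fold change was 0.44. Pyruvate entry into mitochondria, with 10 tested genes of the pyruvate carrier and of pyruvate dehydrogenase and its phosphatases, had a median of 0.098 and 1 gene called lower, Mpc1, against 11.3% of all tested genes. The difference between these lists and the members was not tested.

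**Figure D5:**
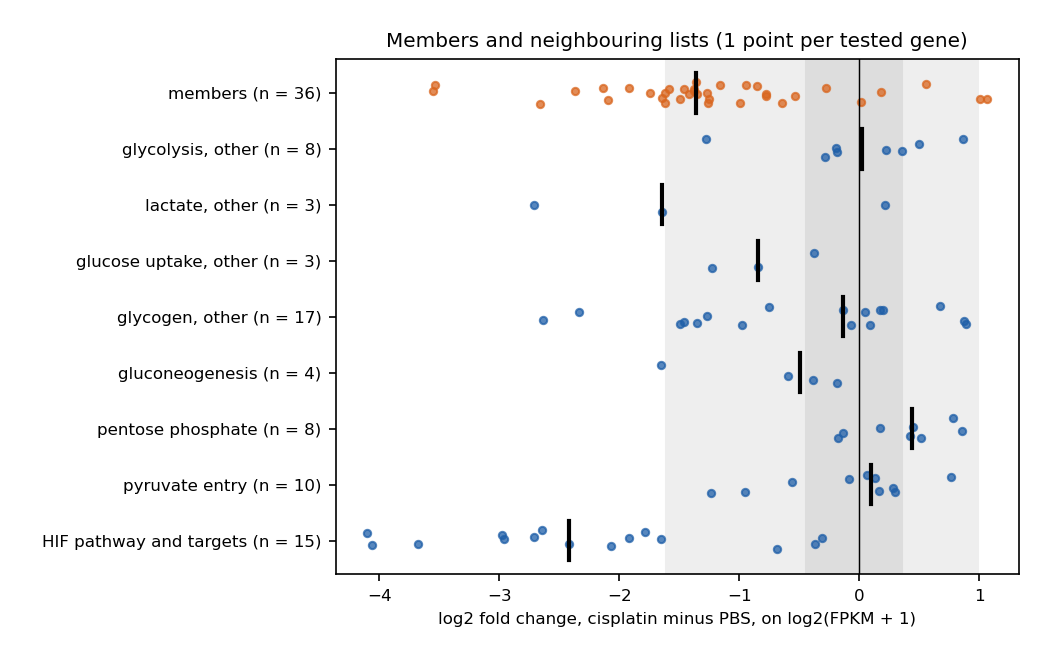
Log2 fold change, cisplatin minus PBS, of each tested gene of the members, of 7 groups of further pathway genes and of the HIF list (black bars, medians; dark and light grey, the middle 50% and 90% of all tested genes). The medians of the members, of the HIF list and of the 3 other lactate genes lie left of -1, and those of the pentose phosphate, pyruvate entry and other glycolysis genes lie right of 0.

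Genes known to share hypoxic control with glycolysis were mostly lower as well. Of 15 tested genes of the HIF pathway and of its targets outside glycolysis, 12 were called lower and 0 higher, with 11.3% and 4.67% of all tested genes as the background, and the median log2 fold change was -2.42. Like the members, this list and that of the further pathway genes were chosen with earlier results of these data known. Their counts describe them and test nothing. Ndrg1, a stress-response gene, went from 157, 155 and 149 FPKM with PBS to 8.10, 8.05 and 7.84 with cisplatin, and Egln3, an oxygen-sensing prolyl hydroxylase, from 231 ± 3.71 to 12.9 ± 1.34 (SD, n = 3 each), while Hif1a itself had a log2 fold change of -0.31 and was not called.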

How the data were processed

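RNA-seq of 6 BMDM libraries was used, 3 per group, grouped by the treatment given in the labels. The authors deposited FPKM values for each gene and library, with gene coordinates and lengths. The submitters' processing notes name fastp, HISAT2 2.0.5, featureCounts 1.5.0-p3 and the mm10 build, while the study's methods name LifeScope as the aligner, so which of them made the FPKM is not settled. Multiplied by gene length and divided by what 1 read is worth in each library, the FPKM came out as whole reads (tolerance 0.02, checked under 200 reads), and these recovered reads served for depth and for 1 alternative.

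From the deposited FPKM, log2(FPKM + 1) was fitted with limma 3.58.1 (R 4.3.3), with eBayes trend, group as the only term and Benjamini-Hochberg adjustment over the 13441 genes that reached 1 FPKM in 3 or more libraries. Fold changes are on that scale and understate those of low genes. A call needed an adjusted p below 0.05 with the groups 1 log2 unit or more apart. The fitting code was run on simulated reads in which far fewer genes were changed than were called here, so that run checked the code and not the calls. Members and lists were chosen with earlier results of these data known. All 37 members were named. Of the further pathway genes up to 4 called genes per direction, and of the HIF list up to 2, were named by size of change where the higher group averaged at least 5 FPKM. Promoter windows and their coordinates are RefSeq's on GRCm38.p6. Alternatives were the pseudocount, the filter, the scaling, the trend, voom, the replicate block, the call rule and leaving out each library.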

Additional observations from a re-analysis of the deposited data

How the results depend on the processing

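Over the 17 alternatives that keep the call rule, 581 of 609 values of single members kept their direction and their side of the call, 16 gained a call, 6 lost one and 6 changed sign. Scaling by the Y-linked genes turned Pygl to -0.79, Pfkfb4 to -0.30 and Pfkfb2 to -0.57, and gave 0 members called higher, a member median of -2.34, 26 further pathway genes called lower with a median of -0.93, and 85 genes higher and 5181 lower over all tested genes. Pfkfb2 also turned without cisplatin replicate 1 (-0.061), cisplatin replicate 3 (-0.047) or PBS replicate 2 (-0.023), and without each of the other libraries in turn was at most 0.14. The member median was -1.31 with no filter, -1.32 with quantile normalisation, -1.27 with the total of recovered reads and -1.30 with voom, and that of the further pathway genes was -0.0096, -0.032, -0.052 and -0.052. A single further pathway gene (1) was called higher with a pseudocount of 0.1, with TPM rescaling and with quantile normalisation, and 5 were with voom. All genes called higher numbered 973 with a pseudocount of 0.1 and 1227 with voom. The adjusted p alone gave 10 members a call, and gave 4 members higher, 18 further pathway genes higher and 22 lower, and 4424 and 4721 genes in all. Leaving out each library in turn gave 1 to 2 members higher and 23 to 24 lower, a member median of -1.38 to -1.31, a median of the further pathway genes of -0.12 to -0.087 with 12 to 13 called lower, and 622 to 671 genes higher and 1513 to 1531 lower over all. The causes were not tested. With the replicate number as a block, 2 members were higher and 23 lower, 12 further pathway genes were lower, and 625 and 1515 genes were called in all. Same-numbered libraries did not deviate together (correlations of -0.10, -0.086 and -0.024). Whether they shared an animal, a culture or a day is not given in the sources used here, and these correlations cannot settle it. Depth limits the lowest values most, since the fewest reads behind a tested member in a library were 50.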
